A study of Mus musculus with 36 samples.

Results

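DNA replication and mitosis genes were followed in mouse embryos from E7.5 to E13.5, the end of axis elongation. The set has 40 genes, chosen by name, 9 for origin licensing and the replication fork, 3 for nucleotide supply, 8 cyclins, 7 for cyclin-dependent kinases and the Cdc25 phosphatases that activate them, 8 for mitosis, and 5 for inhibitors, E2F and Rb. Of the 40 symbols, 39 were on the array and Cdk1, the kinase that drives entry into mitosis, had no probe under that symbol. The array lists it by an older symbol, Cdc2a, which the matching by current symbols leaves out, so Cdk1 was not followed. A probe was kept when its detection p-value was under 0.01 on at least 1 array. By this rule 37 genes were kept, with 76 of the 88 probes of the set, among 15556 genes and 21712 of 45281 probes in all. Ccnb2, a mitotic cyclin, had 1 probe with a smallest detection p-value of 0.296, and Bub1, a checkpoint kinase of the spindle, had 2 probes with a smallest value of 0.203, so neither could be followed.

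Dividing cells copy their DNA once in each cycle. Cdc6 and Cdt1 load the Mcm helicase on origins in G1 phase, cyclin D with Cdk4 or Cdk6 and then cyclin E with Cdk2 inactivate Rb and free E2F factors, and these switch on genes for replication. Cyclin B with Cdk1 and the Aurora and Polo kinases then carry the cell through mitosis, while p21 (Cdkn1a), p27 (Cdkn1b) and p18 (Cdkn2c) hold cyclin-dependent kinases back.

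RNA was amplified from microdissected regions of wild-type MF1 embryos, an outbred strain, and measured on Illumina MouseWG-6 v2.0 arrays. There were 36 arrays of 16 regions, 12 regions with 2 arrays and 4 with 3, and each array held a pool of 6 to 74 dissected pieces. From headfold embryos at E7.5 came the anterior region (A, 3 arrays of 9 to 25 pieces), the posterior region (P, 2 arrays of 9 and 13 pieces) and the proximal posterior region (PP, 2 arrays of 12 and 15 pieces). At E8.5 the regions were the rostral node (RN, 2 arrays), the border of node and streak (NSB, 3 arrays), the caudal lateral epiblast (CLE, 3 arrays), and the anterior (St1, 2 arrays) and posterior streak (St5, 2 arrays), with 12 to 57 pieces an array. The tail bud gave the chordoneural hinge (CNH), with 2 arrays at each of E9.5, E10.5, E12.5 and E13.5 and 3 at E11.5, and more posterior tail bud tissue (P-CNH), with 2 arrays at each of E9.5, E10.5 and E11.5.

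Intensities are given as log2 values after background correction and quantile normalisation. Probes differ in how bright they are, so levels were not compared between genes. In pooled pieces, fewer dividing cells and less RNA of these genes per cell cannot be told apart. The number of arrays limits the precision, and tests take their spread from all 36 arrays of 1 limma model with terms for region and batch, except where a fit on some batches alone is named. A gene was called when its adjusted p was at most 0.05 and its fold change at least 1.5, and a log2 difference is the first named region minus the second. Where a gene was detected on no array of 1 region, that region was set to its lowest detected intensity and the difference is given as a bound (at least N-fold). Bounds come from means of the arrays with no batch term, whereas the adjusted p beside them come from the model. Across batches a difference in the model can thus be smaller than the bound. No bound could be given where detection was too sparse, and bounds were computed only for comparisons of 1 region with 1 other.

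An array detected 10814 to 16256 probes (median 15054), and the median intensity of detected probes was 2.28 to 15.1 times that of probes with a detection p-value above 0.5. The labels give 3 batches of 12 arrays. Batch 1 holds all E10.5 arrays, those of RN, St1 and St5, and NSB 1 and 2, and detected 15481 to 16256 probes. Batch 2 detected 11062 to 15388 and batch 3 detected 10814 to 16241. Both E7.5 P arrays and both E9.5 CNH arrays lie in batch 2, whereas E11.5, E12.5 and E13.5 CNH have arrays in batches 2 and 3. Within batch 2, arrays of E7.5 P and E9.5 CNH are on array slide (BeadChip) 3. Those of E11.5, E12.5 and E13.5 CNH in this batch are on BeadChip 4, so differences between these groups of stages are also differences between BeadChips. NSB 3 in batch 3 is the only array that ties batch 1 to the others, so a difference between NSB and E7.5 P or E9.5 CNH rests on it.

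Some arrays stood apart from their replicates before any test. Over all kept probes, replicates correlated with r of 0.858 in E13.5 CNH and 0.859 in E11.5 P-CNH, against 0.997 in E9.5 CNH. Between these replicates the 37 genes differed on average by 1.16, 1.17 and 0.0983 on the log2 scale. E13.5 CNH 2 detected 10814 probes, CLE 1 detected 11062, E11.5 P-CNH 1 detected 12280 and CLE 2 detected 12289, the 4 lowest numbers. Averaged over the 37 genes, log2 intensity was 9.72 on E13.5 CNH 2 and 9.71 on E11.5 P-CNH 1 and reached 10.51 on E7.5 P 1 and 10.52 on E7.5 PP 2. For example, the thymidylate synthase gene Tyms had log2 intensities of 10.72 and 7.96 in E13.5 CNH, 7.92 and 11.80 in E11.5 P-CNH and 11.21, 8.97 and 11.61 in CLE. Cdk4 and Top2a, a topoisomerase that untangles replicated DNA, were low on E13.5 CNH 2, E11.5 P-CNH 1 and CLE 2 as well, with 12.55 and 8.83 for Cdk4 and 10.77 and 8.78 for Top2a in E13.5 CNH. The share of array quality in such values was not tested, and for the 37 genes each call lost without 1 array is given with its value. Calls named on other lists are followed by the arrays, left out 1 at a time, without which they were lost and by the number of other settings that lost them.

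Markers were summed to see whether the regions held what their labels say. Summed over 8 streak and tail bud markers, the level (unlogged intensity) was 2900, 3320 and 1758 in E7.5 A and 25900 and 26947 in E7.5 P, where T was the most abundant. In E9.5 CNH the sum was 45448 and 47042, in E11.5 CNH 49884, 54303 and 52731, and in E13.5 CNH 27002 and 17683. The 5 notochord and node markers summed to 6040 and 7246 in RN against 516 and 479 in St5. In the tail bud they summed to 2275 and 2454 in E9.5 CNH against 414 and 316 in E9.5 P-CNH. Both lists thus separated the regions, with every CNH array above every P-CNH array for the notochord list. E7.5 P also held transcripts of visceral endoderm, whose 6 markers summed to 5638 and 4538 there and to 167 and 457 in E13.5 CNH.

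Other tissues marked the end of the series. For 5 surface ectoderm markers the sum was 249.1 and 201 in E7.5 P, 238 and 248 in E9.5 CNH, 394, 162 and 484 in E11.5 CNH, 1188 and 967 in E12.5 CNH and 3135 and 2809 in E13.5 CNH, with Krt14 the most abundant at E13.5. Krt14, Krt5 and Trp63 were detected on no array of E7.5 P or E9.5 CNH. Of the other markers on this list, Grhl3 was detected on all arrays of both regions and Krt15 on none. Neither was called higher in E13.5 CNH. The 3 kept endothelium markers of 5 listed summed to 134.7 and 121 in E7.5 P, 107 and 141 in E9.5 CNH and 605 and 575 in E13.5 CNH, and none of the 3 was detected in E7.5 P or E9.5 CNH. Blood transcripts varied within a stage, with 6 markers summing to 3939, 1744 and 1181 in NSB, 9101 and 4499 in RN, 7499 and 4144 in E9.5 P-CNH, 37271 and 37803 in E9.5 CNH and 61628 and 23152 in E13.5 CNH, where Hba-a1 was the most abundant. E13.5 pieces thus held transcripts of surface ectoderm, vessels and blood, and the part of this mixture in the differences given for E13.5 was not tested.

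All 36 arrays detected 28 of the 37 genes, and 30 to 35 of the 37 were detected on any 1 array. Detected on fewer arrays were Cdkn1b (2 arrays), Cdk6 (4), Cdkn2c (12), Cdc25b (16), Ccna2 (19), Ccne2 (28), Pcna (31), Mcm3 (33) and Rb1 (35). Fitted means of the 16 regions spanned a median of 1.30 on the log2 scale over the 37 genes and 1.44 over all genes, with median residual SDs of 0.311 and 0.354. Of the 28 genes detected on every array, the narrowest spans belonged to Birc5 (0.36), Aurka (0.41) and Cdk2 (0.63). Birc5 encodes a subunit of the chromosomal passenger complex and Aurka the kinase of the spindle poles. The widest span was that of Cdkn1a (3.70), and all 7 kept mitosis genes were among the 28.

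**Figure D1:**
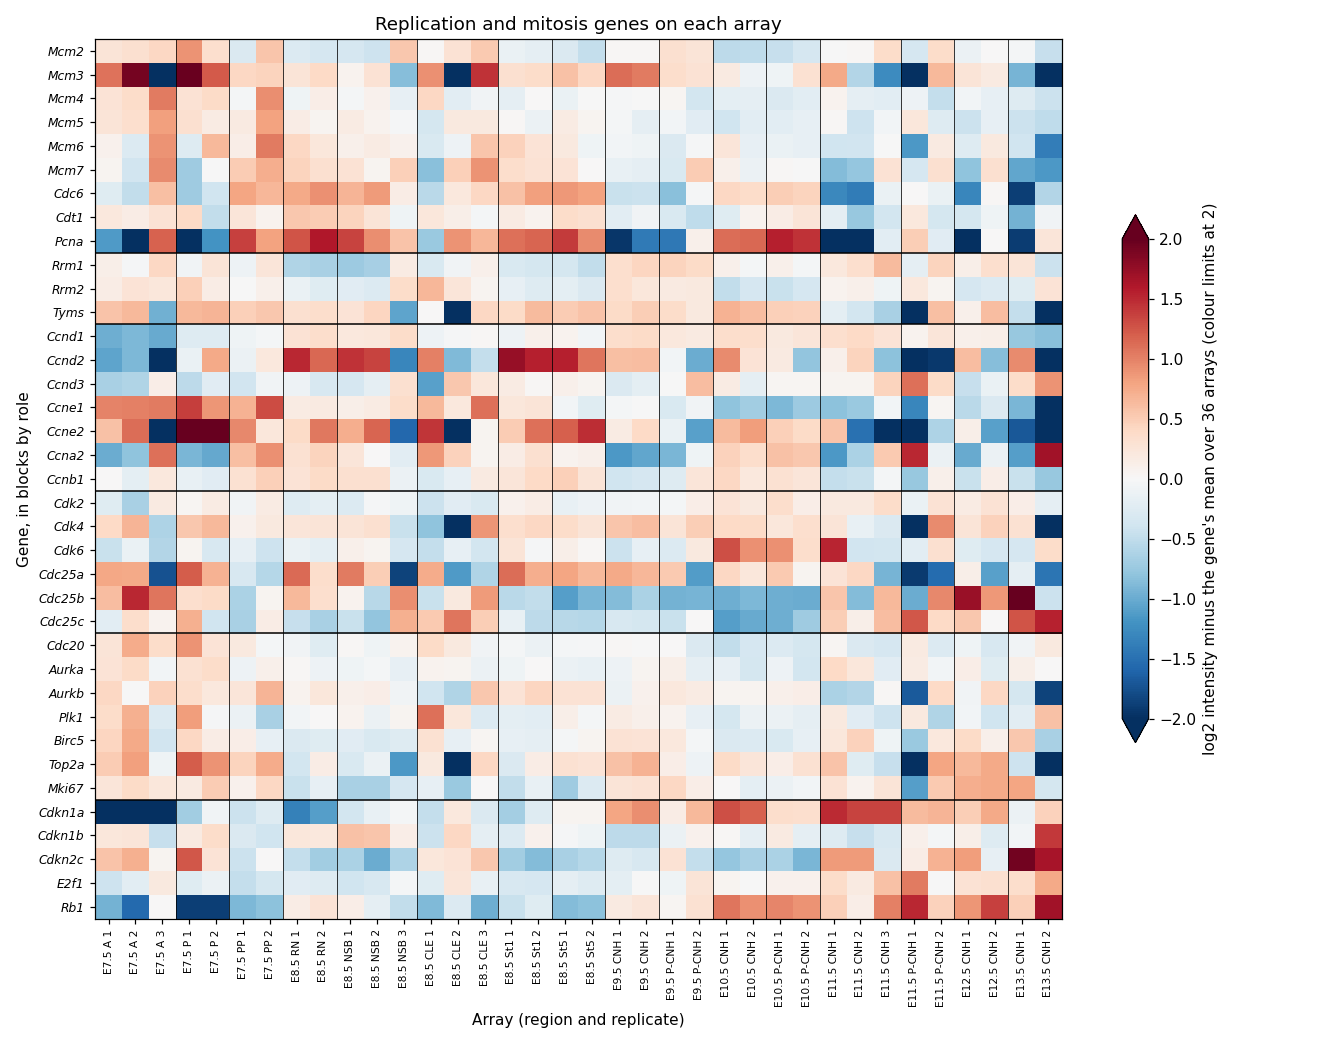
Heat map of log2 intensity minus each gene's mean, for 37 genes (vertical axis, in blocks by role) on 36 arrays (horizontal axis, grouped by region). Columns of E13.5 CNH 2, E11.5 P-CNH 1 and CLE 2 are dark blue for Tyms, Cdk4 and Top2a, and Cdkn1a runs from dark blue in E7.5 A to red in E10.5 and E11.5 CNH.

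Along the axis progenitors, from E7.5 P through NSB to the CNH of each day, the median of the 37 genes in the fitted model lay below that of all genes at each stage. Against E7.5 P the median log2 difference was -0.23 in NSB, -0.18 in E9.5, -0.31 in E10.5, -0.40 in E11.5, -0.16 in E12.5 and -0.28 in E13.5 CNH. Over all genes it lay between -0.01 and 0.05. The 9 licensing and fork genes had medians of -0.36, -0.27, -0.62, -0.47, -0.41 and -0.93 at the same stages. The 7 mitosis genes had -0.35, -0.29, -0.38, -0.41, -0.15 and -0.11, with a lower quartile of -0.93 at E13.5. Among further genes the medians at E13.5 were -0.31 for 28 of replication and -0.38 for 30 of mitosis. The 7 cyclins ran from -0.23 in NSB through 0.11 in E11.5 to -0.53 in E13.5 CNH. The 5 inhibitor, E2F and Rb genes had -0.19, 0.08, 0.20, 0.45, 0.32 and 0.57. These medians describe the lists, differences between roles were not tested, and all of them share the E7.5 P arrays.

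**Figure D2:**
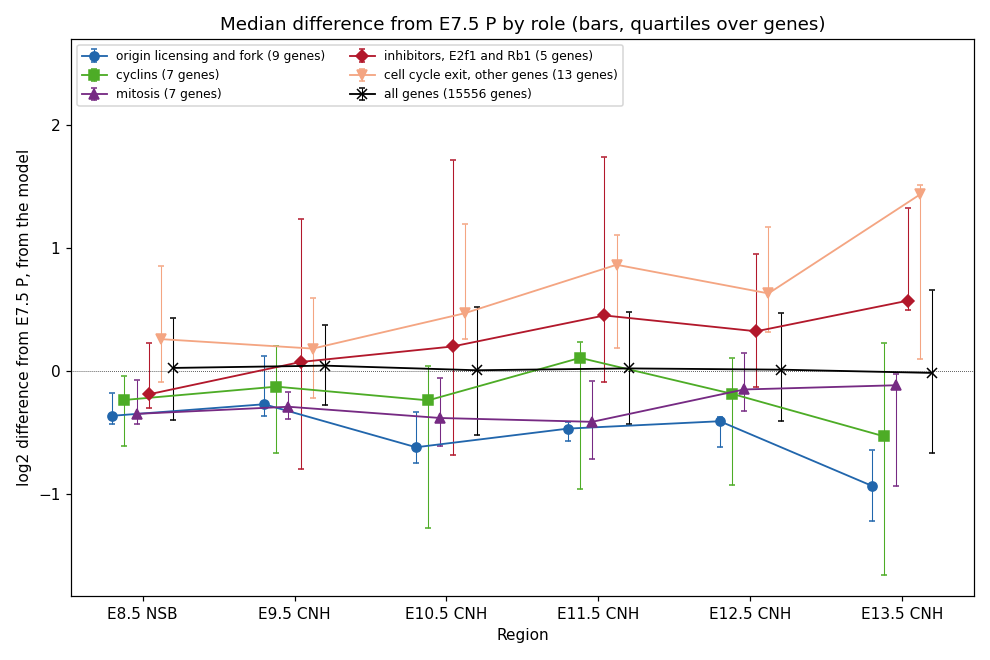
Median log2 difference from E7.5 P (vertical axis) at NSB and at each CNH stage (horizontal axis) for the roles and for all genes, with bars from the lower to the upper quartile over genes. Licensing and fork genes end at -0.93 and mitosis genes at -0.11, while inhibitor, E2F and Rb genes end at 0.57 and further genes of cell cycle exit at 1.44.

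Averaged over the 9 licensing and fork genes, log2 intensity was 11.29 and 11.40 on the E7.5 P arrays and 11.13 and 11.18 in E9.5 CNH. In NSB it was 11.63, 11.58 and 11.40 and in E10.5 CNH 11.40 and 11.36, so no array of these 2 stages lay below both E7.5 P arrays. All of them but NSB 3 are of batch 1, and their negative medians come from the model with its batch term. It was 10.86, 10.59 and 11.15 in E11.5, 10.76 and 11.36 in E12.5 and 10.45 and 10.35 in E13.5 CNH. Both E13.5 arrays lay below every array of E7.5 P and of E9.5, E11.5 and E12.5 CNH, in batch 2 and in batch 3 alike. The median intensity of detected probes over that of probes with high detection p-values was also low on both, 2.64 and 2.33 times. This ratio was 3.96 and 11.3 in E7.5 P, 5.42 and 6.11 in E9.5 CNH and 2.78, 2.68 and 5.81 in E11.5 CNH. Its part in the lower means at E13.5 was not tested. For the 7 mitosis genes the means were 12.19 and 11.93 in E7.5 P, 11.44, 11.43 and 11.34 in NSB, 11.75 and 11.81 in E9.5 CNH, 11.48 and 11.46 in E10.5 CNH and 11.66 and 10.96 in E13.5 CNH. Here the replicates of E13.5 CNH differed by more than E13.5 CNH 1 did from E9.5 CNH, the lower value being that of the array with the fewest detected probes.

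The first and the last stage were compared to ask how far proliferation genes change over the whole of elongation. Between E13.5 CNH and E7.5 P, 3 of the 37 genes were called higher and 10 lower, where 17.2% of all genes were called higher and 16.4% lower. The median was -0.28 for the 37 genes and -0.01 for all genes, and 20 of the 37 had an unadjusted p under 0.05. Without E7.5 P 1 or without E13.5 CNH 2, 3 genes were called higher and 5 lower, and 25.2% of all genes were called in either direction. In the fit without E13.5 CNH 2, 7 of the 13 calls were lost and 2 of the 8 calls, Cdt1 and Cdc25b, were new. Fitted on batches 2 and 3 alone, the comparison called 2 higher and 4 lower, and 20.7% of all genes. Array weights gave 3 calls in all (8.55% of all genes), the mean of all kept probes 19 (35.1%), and leaving out the 4 arrays with the fewest detected probes 18 (40.0%). By role the genes called lower were 6 of 9 for licensing and the fork, 2 of 7 cyclins, 1 of 6 kinases and phosphatases and 1 of 7 for mitosis, and none of 3 for nucleotide supply, where limma gave 1 an unadjusted p under 0.05. Of the 6 licensing and fork genes, Mcm2, Mcm3, Mcm5, Mcm6 and Mcm7 were lost without E13.5 CNH 2, and Cdc6 was not.

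Cdc6, the loader of the Mcm helicase, is reported in this comparison although it fell outside the naming rule, and was chosen after its values were seen. Its log2 intensity was 9.43 and 9.75 in E7.5 P and 8.27 and 9.55 in E13.5 CNH. On E13.5 CNH 1, of the same batch as E7.5 P, it lay below both E7.5 P arrays, and on E13.5 CNH 2, of batch 3, between them. E13.5 CNH 1 is on BeadChip 4 and both E7.5 P arrays are on BeadChip 3, so that comparison also crosses BeadChips. Batch 3 arrays ran higher for this gene within a region, as in E11.5 CNH with 8.85, 8.76 and 10.01 and E12.5 CNH with 8.85 and 10.17, where the last value of each is from batch 3. With batch in the model the log2 difference was -1.21, SE 0.19, adjusted p 5.5e-05, and the call held without any 1 of the 36 arrays. With no batch term it was -0.68, adjusted p 0.273, with the BeadChip as a random block -0.76, adjusted p 0.202, and with array weights -1.22, adjusted p 0.0559. A dimmer probe, detected on 30 arrays, gave -1.73 with an adjusted p of 0.0217, and another, detected on 1 array, gave 0.77 with an adjusted p of 0.165.

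Mcm7, a subunit of the helicase, measured 10.56 and 11.26 in E7.5 P and 10.23 and 10.13 in E13.5 CNH, so both late arrays were below both early ones. Its log2 difference was -1.22, SE 0.31, adjusted p 0.00521. The call was lost without E7.5 P 2 (-0.87, adjusted p 0.083) and without E13.5 CNH 2 (-0.68, adjusted p 0.104), and also with no batch term (adjusted p 0.255), the BeadChip as a random block (adjusted p 0.215) and array weights (adjusted p 0.114). Mcm2, another subunit, measured 12.83 and 12.27 in E7.5 P, 11.95 and 11.95 in E9.5 CNH and 11.88 and 11.47 in E13.5 CNH. Both E13.5 arrays were below both E7.5 P arrays, by a log2 difference of -0.93, SE 0.27, adjusted p 0.0114. It was not called without E7.5 P 1 (-0.65, adjusted p 0.133) or without E13.5 CNH 2 (-0.66, adjusted p 0.112), nor with the BeadChip as a random block (adjusted p 0.105), batches 2 and 3 alone (adjusted p 0.0572) and array weights (adjusted p 0.192).

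Mcm3 and Mcm6 complete the helicase subunits named by the rule. Mcm6 measured 12.11 and 13.03 in E7.5 P and 11.97 and 10.99 in E13.5 CNH, with no overlap and a log2 difference of -1.25, SE 0.43, adjusted p 0.0288. Its calls failed without E7.5 P 2 (-0.80, adjusted p 0.253) and without E13.5 CNH 2 (-0.60, adjusted p 0.345), and held under 8 of 15 other settings, with adjusted p of 0.0543 to 0.204 in the others. Another Mcm6 probe, detected on all 36 arrays, went the other way, by 0.45 with an adjusted p of 0.417, and 1 gave -1.96 with an adjusted p of 0.0375. Mcm3 measured 11.66 and 10.90 in E7.5 P and 8.75 and 5.23 in E13.5 CNH, a log2 difference of -3.39, SE 1.199, adjusted p 0.0339. Its replicates differed widely also in E7.5 A (10.76, 11.60 and 7.68) and CLE (10.59, 6.26 and 11.12). It was not called without E7.5 P 1 (-3.01, adjusted p 0.144), E7.5 P 2 (-3.77, adjusted p 0.069) or E13.5 CNH 2 (-2.53, adjusted p 0.2), and was called under 8 of 15 other settings, with adjusted p of 0.059 to 0.313 in the others. Mcm5, chosen after its values were seen, measured 13.59 and 13.44 in E7.5 P and 12.84 and 12.76 in E13.5 CNH, lower on both late arrays, with a log2 difference of -0.83, SE 0.24, adjusted p 0.0112, and was not called without E7.5 P 1 (-0.75, adjusted p 0.0636) or E13.5 CNH 2 (-0.67, adjusted p 0.078), nor with cyclic loess (adjusted p 0.104), batches 2 and 3 alone (adjusted p 0.0572) and array weights (adjusted p 0.275).

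Several licensing genes were called lower together, though without E13.5 CNH 2 all of these calls but that of Cdc6 were lost. Promoters were then read from a RefSeq table of build GRCm38.p6, which covers 250 bases before to 50 after each start. It held 32 of the 40 genes, 4 of them (Mcm7, Ccnd3, Cdkn1a and Cdkn2c) with several entries, and Mcm4, Ccnd1, Ccnd2, Ccne2, Ccna2, Cdc25c, Aurkb and Rb1 were missing. On both strands, an E2F element (TTTCGCGC, TTTGGCGC or TTTCCCGC) was found in 9 of 32 genes (28.1%) and in 606 of 32851 promoters of the table (1.84%). The 9 were Mcm3, Mcm5, Mcm6, Mcm7, Cdc6, Cdt1, Cdk1, Cdk2 and Cdc25a, which made 6 of 8 licensing and fork genes and 0 of 7 mitosis genes. The CHR element TTTGAA was in 8 of 32 genes (25%) against 17.9% of promoters, and in 5 of the 7 mitosis genes, Cdc20, Aurka, Plk1, Top2a and Mki67. CCAAT boxes (CCAAT) were in 23 of 32 genes (71.9%) against 37.4% of promoters. A match describes the letters of this window and no more.

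Printed 5′ to 3′ are Cdc6 (chr11:98907901-98908200, plus strand), Mcm7, its entry 1 (chr5:138171834-138172133, minus strand), and Mcm6 (chr1:128359656-128359955, minus strand), which hold an E2F element. Their brightest probes were called lower in E13.5 CNH than in E7.5 P in the model of all arrays. Capitals mark the matches. Cdc6 has its element at -138 from the start on the minus strand. In Mcm7 they lie at -165 and 17, the second sharing a base with a CCAAT box at 24, and further boxes lie at -72 and -26. Mcm6 has elements at -110 and -106 that overlap on opposite strands and another at -47, with CCAAT boxes at -57 and -14.
Cdc6: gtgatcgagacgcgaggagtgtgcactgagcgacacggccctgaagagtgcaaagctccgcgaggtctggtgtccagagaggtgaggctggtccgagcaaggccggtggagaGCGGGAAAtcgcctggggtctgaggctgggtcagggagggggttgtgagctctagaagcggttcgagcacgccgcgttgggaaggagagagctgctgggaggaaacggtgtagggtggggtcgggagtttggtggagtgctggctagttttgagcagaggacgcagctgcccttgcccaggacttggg
Mcm7: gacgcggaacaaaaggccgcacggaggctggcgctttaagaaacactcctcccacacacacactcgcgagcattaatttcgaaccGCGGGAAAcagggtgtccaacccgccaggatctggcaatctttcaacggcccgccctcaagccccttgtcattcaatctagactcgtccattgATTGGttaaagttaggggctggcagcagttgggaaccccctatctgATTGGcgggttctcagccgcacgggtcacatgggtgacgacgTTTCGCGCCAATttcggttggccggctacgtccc
Mcm6: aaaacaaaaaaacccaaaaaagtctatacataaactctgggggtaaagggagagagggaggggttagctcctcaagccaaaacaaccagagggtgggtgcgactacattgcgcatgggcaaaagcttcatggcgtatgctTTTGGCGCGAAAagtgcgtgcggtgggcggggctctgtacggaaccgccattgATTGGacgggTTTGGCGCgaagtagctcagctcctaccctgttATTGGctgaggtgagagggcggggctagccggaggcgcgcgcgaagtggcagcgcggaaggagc

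For contrast, Ccne1 (chr7:38107441-38107740, minus strand) was also lower in E13.5 CNH and holds none of the motifs, and Mki67 (chr7:135716330-135716629, minus strand) was not called in any comparison. Mki67 holds CHR elements at -116 and -98 and CCAAT boxes at -188, -166 and -141, again in capitals.
Ccne1: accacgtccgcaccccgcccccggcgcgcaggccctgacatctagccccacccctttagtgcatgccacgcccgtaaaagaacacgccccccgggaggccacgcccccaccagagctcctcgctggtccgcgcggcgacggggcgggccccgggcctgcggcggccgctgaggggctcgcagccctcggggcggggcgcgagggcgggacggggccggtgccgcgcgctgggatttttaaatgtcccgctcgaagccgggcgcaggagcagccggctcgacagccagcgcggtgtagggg
Mki67: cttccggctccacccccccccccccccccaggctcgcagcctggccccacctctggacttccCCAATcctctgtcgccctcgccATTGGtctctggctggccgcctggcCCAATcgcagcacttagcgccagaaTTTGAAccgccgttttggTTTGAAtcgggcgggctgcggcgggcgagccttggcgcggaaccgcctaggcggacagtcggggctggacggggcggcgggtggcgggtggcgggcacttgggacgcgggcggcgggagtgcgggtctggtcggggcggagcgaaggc

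Both genes of cyclin E, which with Cdk2 starts S phase, were lower. Ccne1 measured 10.92 and 10.42 in E7.5 P, 9.504 and 9.53 in E9.5 CNH, 8.73 and 8.84 in E10.5 CNH, 8.72, 8.79 and 9.48 in E11.5 CNH and 8.62 and 7.26 in E13.5 CNH. Every E13.5 array was below every E7.5 P array, and the log2 difference was -2.74, SE 0.41, adjusted p 2.96e-05. Ccne2 measured 10.02 and 9.58 in E7.5 P and 5.81 and 4.68 in E13.5 CNH, where neither array detected it. Setting the undetected arrays to their lowest detected intensity gave at least 8.93-fold less than in E7.5 P (adjusted p 0.000991). Both calls held without any 1 of the 36 arrays and under every other setting tried. Replicates of Ccne2 differed widely in other regions, as in NSB (8.25, 8.67 and 5.94), E7.5 A (8.10, 8.64 and 5.36) and CLE (8.95, 5.06 and 7.56). Between E13.5 and E9.5 CNH limma did not call Ccne2 (adjusted p 0.124).

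Of the cyclin D genes, partners of Cdk4 and Cdk6, Ccnd1 had a log2 difference of -0.53, adjusted p 0.0121 between E13.5 CNH and E7.5 P, 1.44-fold and so under the fold threshold. Ccnd2 (-0.19, adjusted p 0.787) and Ccnd3 (0.65, adjusted p 0.0652) were not called. Of the mitotic cyclins, Ccnb1 was not called (-0.57, adjusted p 0.0744).

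Cdc25 phosphatases remove inhibitory phosphates from cyclin-dependent kinases. Cdc25c measured 9.43 and 8.32 in E7.5 P and 9.97 and 10.26 in E13.5 CNH, higher on both late arrays by a log2 difference of 1.17, SE 0.36, adjusted p 0.0157. It was not called without E7.5 P 2 (0.62, adjusted p 0.248) or E13.5 CNH 2 (1.10, adjusted p 0.0652), nor with the BeadChip as a random block (adjusted p 0.162), batches 2 and 3 alone (adjusted p 0.0593), array weights (adjusted p 0.293) and detected probes as a covariate (adjusted p 0.0618). Cdc25a, named after its values were seen, measured 10.80 and 10.27 in E7.5 P and 9.40 and 8.12 in E13.5 CNH, lower on both late arrays, with a log2 difference of -0.97, SE 0.33, adjusted p 0.0277, and was not called without E7.5 P 1 (-0.71, adjusted p 0.195) or E13.5 CNH 1 (-0.75, adjusted p 0.163), and was called under 10 of 15 other settings, with adjusted p of 0.055 to 0.468 in the others. Cdk4, singled out after its values were seen, had probes that disagreed, since the brightest gave -1.79, adjusted p 0.179, and a second was called higher by 1.53 with an adjusted p of 0.0280.

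Among genes of mitosis, Aurkb, the kinase of the chromosomal passenger complex, measured 10.84 and 10.70 in E7.5 P and 10.14 and 8.65 in E13.5 CNH. The late arrays were lower, by a log2 difference of -1.42, SE 0.50, adjusted p 0.0328, and most of the distance was on E13.5 CNH 2. It was not called without E7.5 P 1 (-1.35, adjusted p 0.116), E7.5 P 2 (-1.49, adjusted p 0.0834) or E13.5 CNH 2 (-0.63, adjusted p 0.396), and was called under 8 of 15 other settings, with adjusted p of 0.0506 to 0.185 in the others. Mki67, which encodes the proliferation marker Ki-67, measured 11.01 and 11.33 in E7.5 P, 10.18, 10.18 and 10.497 in NSB, 11.08 and 11.11 in E9.5 CNH, 11.55 and 11.58 in E12.5 CNH and 11.62 and 10.48 in E13.5 CNH. E13.5 CNH 1 lay above and E13.5 CNH 2 below both E7.5 P arrays, and the log2 difference was 0.00, SE 0.38, adjusted p 0.997.

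Of the 5 inhibitor, E2F and Rb genes, 2 were called higher at the end. Rb1, the pocket protein that holds E2F factors, measured 6.10 and 6.11 in E7.5 P, 8.17 and 8.24 in E9.5 CNH, 8.47, 8.13 and 9.00 in E11.5 CNH, 8.88 and 9.36 in E12.5 CNH and 8.47 and 9.68 in E13.5 CNH. No E7.5 P array reached any array of the tail bud, and the log2 difference between the ends was 2.61, SE 0.32, adjusted p 2.99e-06. A second probe gave 2.92 with an adjusted p of 8.40e-08, and the call held without any 1 array and under every other setting. Cdkn2c, p18, measured 6.88 and 5.92 in E7.5 P and 7.58 and 7.29 in E13.5 CNH, higher on both late arrays, with a log2 difference of 1.33, SE 0.32, adjusted p 0.0031, and was not called without E7.5 P 2 (0.84, adjusted p 0.0777) or with cyclic loess (adjusted p 0.185) and array weights (adjusted p 0.11). E2f1 (0.57, adjusted p 0.0687), Cdkn1a (0.50, adjusted p 0.192) and Cdkn1b, which neither region detected, were not called.

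**Figure D3:**
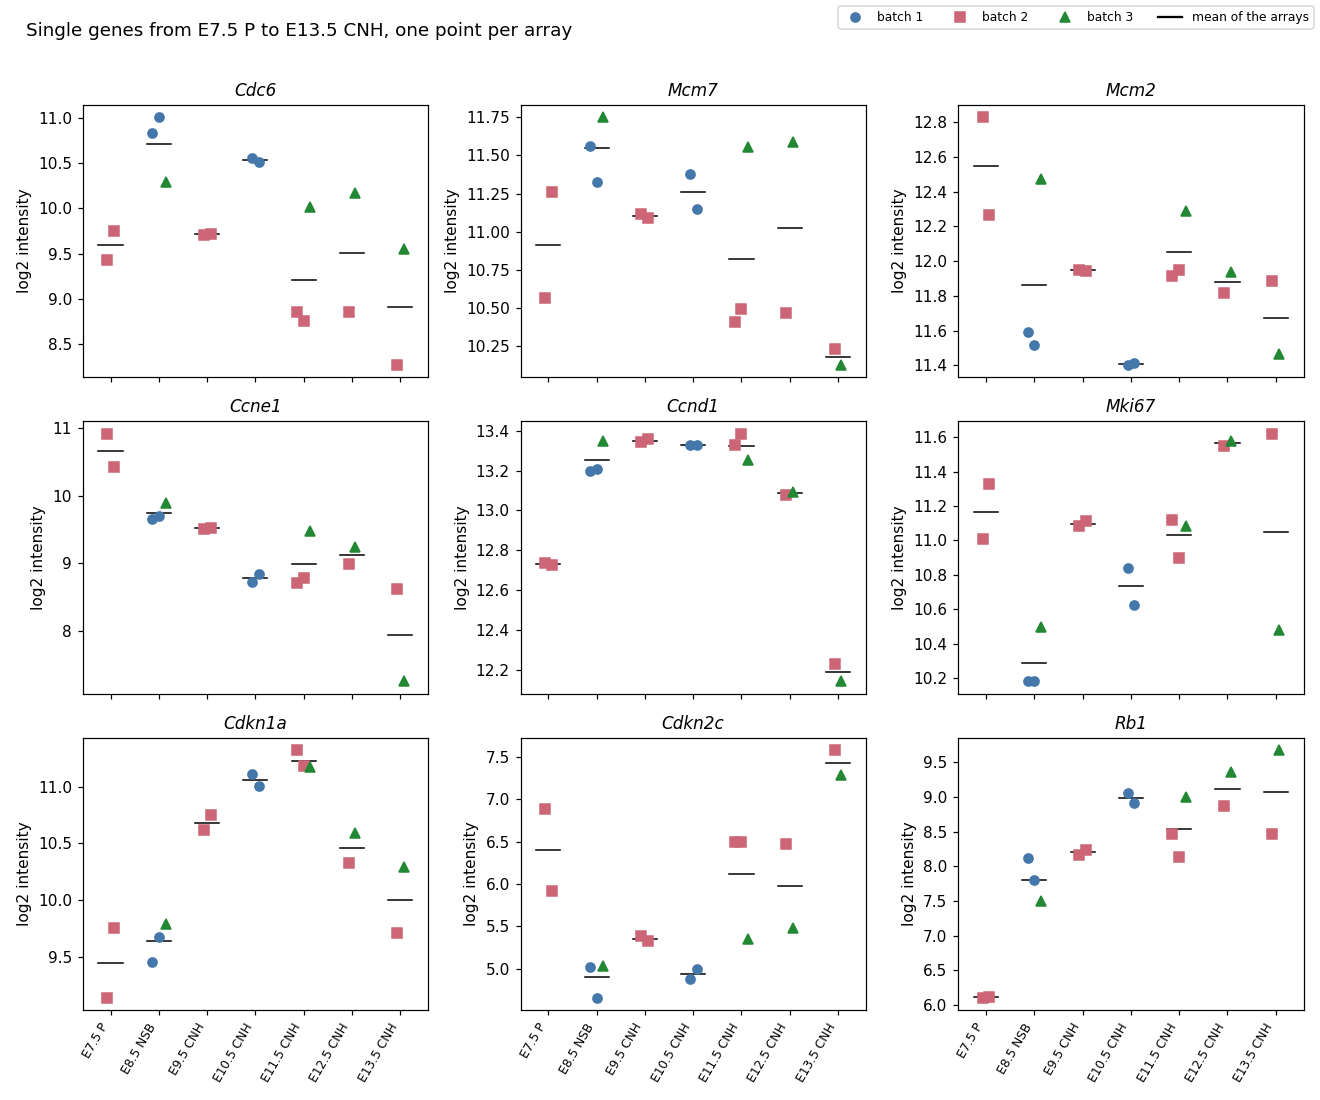
log2 intensity (vertical axis) of 9 genes on each array from E7.5 P to E13.5 CNH (horizontal axis), coloured by batch, with black lines at the means. Cdkn1a peaks at 11.32 in E11.5 CNH, Ccne1 and Ccnd1 are lowest in E13.5 CNH, and Cdc6 is higher on batch 3 than on batch 2 arrays of a region.

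Other genes of the cycle were then counted between E13.5 CNH and E7.5 P, where 17.2% of all genes were higher and 16.4% lower. Of 28 further replication genes kept of 36 listed, 0 were higher and 5 lower, among them Dut (-1.60, SE 0.38, adjusted p 0.00277), which keeps uracil out of DNA, Dbf4 (-1.32, SE 0.32, adjusted p 0.00301), the activator of the Cdc7 kinase, Rfc3 (-0.88, adjusted p 0.0384) of the clamp loader and Fen1 (-0.87, adjusted p 0.0112), which trims Okazaki fragments. Their median was -0.31. Of 30 further mitosis genes kept of 34, 1 was higher, Nusap1 (0.92, adjusted p 0.0199), and 2 lower, the checkpoint gene Mad2l1 (-1.29, adjusted p 0.00459) and Ect2, which was detected on 1 E7.5 P array and no E13.5 array and has no bound, with a median of -0.38. Of 13 further genes of cell cycle exit kept of 16, 9 were higher and 0 lower, with a median of 1.44 where all genes had -0.01. Among them were Gadd45g (1.85, SE 0.53, adjusted p 0.0105) and Gadd45b (at least 2.25-fold, adjusted p 0.0009), stress-induced growth arrest genes, Cdkn1c (1.76, SE 0.40, adjusted p 0.00209), which encodes p57, and the cyclin G gene Ccng2 (1.51, SE 0.28, adjusted p 0.000341). Among 8 further E2F family genes kept of 9, E2f2 was higher (0.83, adjusted p 0.0358) and the median was -0.48. Of the calls named here Dbf4, Gadd45b and Ccng2 held without any 1 array. Lost without 1 of the arrays named were Dut (E7.5 P 2, adjusted p 0.0946), Rfc3 (E7.5 P 1, E7.5 P 2, E11.5 CNH 3 and E13.5 CNH 2, adjusted p 0.051 to 0.252), Fen1 (E7.5 P 2 and E13.5 CNH 2, adjusted p 0.112 to 0.201), Nusap1 (E7.5 P 2 and E13.5 CNH 2, adjusted p 0.0982 to 0.301), Mad2l1 (E7.5 P 1 and E13.5 CNH 2, adjusted p 0.0531 to 0.0542), Ect2 (E7.5 P 2, E12.5 CNH 1, E13.5 CNH 1, E12.5 CNH 2 and E13.5 CNH 2, adjusted p 0.0503 to 0.43), Gadd45g (E7.5 P 2 and E13.5 CNH 2, adjusted p 0.0595 to 0.0914), Cdkn1c (E7.5 P 2, adjusted p 0.0714) and E2f2 (E7.5 P 1 and E13.5 CNH 1, adjusted p 0.222 to 0.396). Other settings that lost a call numbered 1 of 15 for Gadd45b and Ccng2, 2 of 15 for Dut, Dbf4, Mad2l1, Gadd45g and Cdkn1c, 4 of 15 for Fen1, 6 of 15 for Nusap1 and E2f2, 9 of 15 for Rfc3 and 10 of 15 for Ect2.

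Marker lists differed between these stages too. Streak and tail bud markers were lower for 3 of 8, Nkx1-2 (-3.42), Cdx2 (-1.10) and Wnt3a (-0.80). Visceral endoderm markers were lower for 4 of 6, among them Apob (at least 12-fold), Ttr (at least 16.4-fold) and Apoa1 (-4.68). All 6 blood markers were higher, among them Hbb-y (at least 156-fold), as were all 3 kept endothelium markers, among them Cdh5 (at least 2.87-fold). Surface ectoderm markers were higher for 3 of 5, Krt14 (at least 29.3-fold), Trp63 (at least 8.9-fold) and Krt5 (at least 1.82-fold). Notochord and node markers were higher for 2 of 5, Shh (2.80) and Chrd (1.77). Of 4 kept neuron markers of 6, Stmn2 was lower (at least 8.71-fold), and the calls of Elavl4 (higher), detected on no array of either region, and Elavl3 (lower), detected on 1 E7.5 P array, have no bound. Of 3 kept skeletal and muscle markers of 6, Col2a1 was higher (3.74) and Myog, detected on 1 E7.5 P array, lower without a bound. Among these markers, calls were lost without 1 array for Wnt3a (E7.5 P 1, E7.5 P 2, E13.5 CNH 1 and E13.5 CNH 2, adjusted p 0.0501 to 0.0763), Krt5 (E13.5 CNH 1, adjusted p 0.401), Chrd (E7.5 P 2 and E13.5 CNH 2, adjusted p 0.199 to 0.395), Elavl4 (E7.5 P 2 and E13.5 CNH 2, adjusted p 0.0507 to 0.1), Elavl3 (E7.5 P 2, adjusted p 0.0857) and Myog (E7.5 P 1, E13.5 CNH 1, E11.5 CNH 3 and E13.5 CNH 2, adjusted p 0.053 to 0.386), and under other settings in 1 of 15 for Cdx2, Ttr, Apoa1 and Elavl3, 2 of 15 for Elavl4, 3 of 15 for Wnt3a, 7 of 15 for Chrd and 10 of 14 for Myog. The share of these tissues in the differences of the cycle genes was not tested.

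The next comparisons follow the course in steps. From E7.5 P to NSB, 0 of the 37 genes were called by limma, where 2.17% of all genes were higher and 1.07% lower, and 2 of the 37 had an unadjusted p under 0.05. The median was -0.23 for the 37 and 0.03 for all genes. Ccnd1 measured 12.73 and 12.72 in E7.5 P and 13.20, 13.21 and 13.35 in NSB, higher on all 3 NSB arrays, and missed the threshold with a log2 difference of 0.65, SE 0.20, adjusted p 0.0843. Mki67 (-0.43, adjusted p 0.749), Mcm2 (-0.19, adjusted p 0.866), Cdkn1a (0.23, adjusted p 0.848) and Rb1 (0.69, adjusted p 0.462) were not called. A second Rb1 probe was called, by 1.53 with an adjusted p of 0.0191, and 2 dim probes of Mcm4, detected on 13 and 14 arrays, gave -1.77 and -2.15 where the bright probe gave -0.41. Without CLE 1, Ccnd1 was called higher, and without E7.5 A 3, Cdc25a was called lower. NSB 3 carries the comparison, which could not be fitted without it.

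In that step none of the further genes of replication, mitosis, cell cycle exit or E2F was called by limma, with 0, 3, 3 and 0 at an unadjusted p under 0.05. Notochord and node markers were higher for 3 of 5, Shh (3.50), Noto (2.77) and Foxa2 (2.12). Hbb-bh1 of the blood markers was higher (at least 3.9-fold), and Apob of visceral endoderm (at least 20.2-fold) and Elavl3 of the neuron markers (at least 1.43-fold) were lower. These calls held without any 1 array for Shh, Hbb-bh1 and Apob, and were lost for Noto (22 of 35 arrays, adjusted p 0.0501 to 0.116), Foxa2 (20 of 35 arrays, adjusted p 0.0506 to 0.113) and Elavl3 (23 of 35 arrays, adjusted p 0.0532 to 0.235), and under other settings in 1 of 15 for Shh, 2 of 15 for Hbb-bh1, 4 of 15 for Noto, 6 of 15 for Foxa2 and 7 of 15 for Elavl3. No marker of streak and tail bud, endothelium, surface ectoderm or skeleton and muscle was called by limma, with 2, 0, 2 and 1 at an unadjusted p under 0.05.

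From NSB to E9.5 CNH, 0 of the 37 genes were called by limma against 2.24% of all genes higher and 3.52% lower, with 4 at an unadjusted p under 0.05 and medians of 0.12 and 0.04. Rb1 measured 8.12, 7.80 and 7.499 in NSB and 8.17 and 8.24 in E9.5 CNH, both later arrays above all earlier ones, and came nearest with 1.41, SE 0.42, adjusted p 0.0542. Cdkn1a followed with 1.01, SE 0.38, adjusted p 0.145. Rb1 was called higher without CLE 1, CLE 3, either E9.5 P-CNH array or either E11.5 P-CNH array, and Cdkn1a without E7.5 A 3. Beyond the 37, 2 of 30 further mitosis genes were higher, Pttg1 (1.78, adjusted p 0.0376), which encodes securin, and the spindle factor Tpx2 (1.11, adjusted p 0.0322). The difference of Tpx2 turned negative in a model with no batch term (-1.58, adjusted p 0.201) and in one with the BeadChip in place of the batch (-0.64, adjusted p 0.707). For replication, exit and E2F genes limma called 0, with 0 at an unadjusted p under 0.05 in each. Blood markers were higher for 3 of 6, among them Hbb-y, and Stmn2 (-2.26) and Sox9 (-1.79) were lower. The bound for Hbb-y was 193-fold from array means with no batch term, and its difference in the model was smaller. Leaving out 1 array lost Pttg1 (E9.5 CNH 1, E9.5 CNH 2, CLE 1, E9.5 P-CNH 1, E9.5 P-CNH 2 and E7.5 A 3, adjusted p 0.0504 to 0.134), Tpx2 (E9.5 CNH 1, E9.5 CNH 2, E12.5 CNH 1 and E12.5 CNH 2, adjusted p 0.0509 to 0.133) and Stmn2 (E9.5 CNH 1 and E9.5 CNH 2, adjusted p 0.0702 to 0.0755), and calls were lost under other settings in 1 of 15 for Stmn2, 4 of 15 for Sox9 and 5 of 15 for Pttg1 and Tpx2. The remaining 5 marker lists had 0 calls by limma, with 2, 4, 0, 1 and 2 genes at an unadjusted p under 0.05 for streak and tail bud, notochord and node, endothelium, visceral endoderm and surface ectoderm.

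E10.5 CNH and NSB could be compared within batch 1. Cdkn1a, which encodes the inhibitor p21, measured 9.45, 9.68 and 9.79 in NSB and 11.11 and 11.00 in E10.5 CNH, and all arrays of the later stage were above those of the earlier. It was the 1 gene of 37 called higher, with a log2 difference of 1.49, SE 0.28, adjusted p 0.000935, and 0 were called lower, where 3.93% of all genes were higher and 4.13% lower. The call held without any 1 array and under every other setting, and a second probe gave 1.61 with an adjusted p of 9.80e-05. Counts were 2 without E7.5 A 2, E7.5 A 3, E11.5 CNH 1, CLE 1 or CLE 3, and 3 without either array of E13.5 CNH or of E11.5 P-CNH. Shares of all genes called in these fits are not given here, so the moved counts are not a result about the 37 genes. Over the 37 genes 6 had an unadjusted p under 0.05, and the medians were -0.09 for them and -0.01 for all genes.

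Fitted on batch 1 alone, the same comparison called 4 of the 37 higher and 3 lower, where 10.7% of all genes were called higher and 10.0% lower. SEs were smaller in this fit, as the values show. Cdkn1a gave 1.49, SE 0.15, adjusted p 2.26e-05, and Rb1 1.02, SE 0.13, adjusted p 0.000113, with 9.05 and 8.91 in E10.5 CNH above all NSB arrays. Ribonucleotide reductase gene Rrm1 measured 10.95, 11.00 and 11.82 in NSB, the last value from batch 3, and 11.76 and 11.63 in E10.5 CNH, which NSB 3 exceeds, and within batch 1 had a log2 difference of 0.72, SE 0.11, adjusted p 0.000348. Ccne1 was lower, with a log2 difference of -0.89, SE 0.11, adjusted p 9.58e-05, with both E10.5 arrays below all of NSB. Also called there were 3 dim probes, Cdk6 higher, which NSB did not detect, and Cdc25b and Cdkn1b lower, which E10.5 CNH did not detect. Cdkn1b was detected on 2 arrays in all, both of NSB. It thus passed the filter only through the region where it is higher, and its call, among the 3 lower, supports no conclusion.

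The other lists in E10.5 CNH against NSB gave 2 of 13 exit genes higher, Cdkn1c (1.63, SE 0.39, adjusted p 0.00804) and Ccng2 (1.10, SE 0.27, adjusted p 0.011). Replication, mitosis and E2F genes had 0 calls by limma and 1, 0 and 1 at an unadjusted p under 0.05. Of the markers, Fgf8 was higher (1.31) and Nkx1-2 lower (-1.84) for the tail bud, 3 of 6 were higher for blood, among them Hbb-y (at least 191-fold), and Cdh5 (at least 2.19-fold) and Col2a1 (1.86) were higher for vessel and cartilage. Stmn2 (-4.15) and Ttr (at least 6.64-fold) were lower. Not called without 1 array were Cdkn1c (NSB 1, E10.5 CNH 1, NSB 2 and E10.5 CNH 2, adjusted p 0.0575 to 0.0739), Ccng2 (NSB 1 and E10.5 CNH 1, adjusted p 0.145 to 0.221), Fgf8 (NSB 1, E10.5 CNH 1, NSB 2 and E10.5 CNH 2, adjusted p 0.141 to 0.176), Nkx1-2 (NSB 1, E10.5 CNH 1, NSB 2 and E10.5 CNH 2, adjusted p 0.106 to 0.244), Col2a1 (E10.5 CNH 1 and NSB 2, adjusted p 0.056 to 0.0852) and Ttr (NSB 1, adjusted p 0.0574), and calls were lost under other settings in 1 of 15 for Ccng2, Col2a1 and Ttr and 2 of 15 for Fgf8 and Nkx1-2. Notochord and surface ectoderm markers had 0 calls, with 1 and 0 at an unadjusted p under 0.05.

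Within the CNH, the stages E9.5, E11.5, E12.5 and E13.5 were compared in 1 moderated F test of limma, which leaves out E10.5 since it lies in batch 1. Of the 37 genes 7 were called, 10 had an unadjusted p under 0.05, and 18.9% of all genes were called. Fitted means spanned a median of 0.74 over the 37 and 0.80 over all genes. The 7 were Ccnd1 (span 1.15, adjusted p 1.57e-05), Cdkn2c (adjusted p 0.000121, no span since E9.5 CNH did not detect it), Cdc6 (1.34, 0.000264), Cdkn1a (1.24, 0.00959), Cdc25c (1.66, 0.0126), Mcm7 (1.41, 0.0178) and Ccne1 (1.59, 0.034). Counts were 4 without E9.5 CNH 2 (9.93% of all genes), and 12 without E13.5 CNH 1 (33.5%) and without E11.5 P-CNH 1 or E11.5 P-CNH 2 (25.96%). Cdc25c was not called without E9.5 CNH 2 (adjusted p 0.0503) or E13.5 CNH 2 (0.0716), nor with the BeadChip as a random block (adjusted p 0.0517) and batches 2 and 3 alone (adjusted p 0.0948). Mcm7 was not called without E9.5 CNH 1 (0.0685), E9.5 CNH 2 (0.0651) or E13.5 CNH 2 (0.105), nor with no batch term (adjusted p 0.501), the BeadChip as a random block (adjusted p 0.139), batches 2 and 3 alone (adjusted p 0.124) and the mean of all kept probes (adjusted p 0.182). Ccne1 was not called without E9.5 CNH 1 (0.0863), E9.5 CNH 2 (0.0912), E12.5 CNH 2 (0.0606) or E13.5 CNH 2 (0.338), nor with cyclic loess (adjusted p 0.123) and batches 2 and 3 alone (adjusted p 0.18). Cdc6 was lost with no batch term (adjusted p 0.611) and the BeadChip as a random block (adjusted p 0.265), and Cdkn1a with batches 2 and 3 alone (adjusted p 0.0816).

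The same test called 1 of 28 further replication genes, Dbf4 (span 1.22), 1 of 30 mitosis genes, Tpx2 (1.12), 2 of 13 exit genes, Gadd45b and Cdkn2b, neither detected in E9.5 CNH, and 0 of 8 E2F genes, with 2 at an unadjusted p under 0.05 in limma. Calls were lost without 1 array for Dbf4 (E9.5 CNH 1, E9.5 CNH 2 and E13.5 CNH 2, adjusted p 0.0652 to 0.252), Tpx2 (E9.5 CNH 1 and E9.5 CNH 2, adjusted p 0.0614 to 0.0904) and Cdkn2b (E13.5 CNH 2, adjusted p 0.105), and under other settings in 1 of 14 for Cdkn2b, 4 of 15 for Tpx2 and 5 of 15 for Dbf4. Of the markers it called 5 of 8 for streak and tail bud, 1 of 5 for notochord and node, 1 of 4 for neurons, 2 of 6 for blood, 3 of 3 for endothelium, 3 of 5 for surface ectoderm and 2 of 3 for skeleton and muscle. For visceral endoderm it called 0 of 6, with 0 at an unadjusted p under 0.05.

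Between the last and the first tail bud stage, E13.5 and E9.5 CNH, 3 of the 37 genes were called higher and 4 lower, where 12.0% of all genes were higher and 12.3% lower. The median was -0.33 for the 37 and -0.05 for all genes, and 17 of the 37 had an unadjusted p under 0.05. Without E13.5 CNH 1 the counts were 5 higher and 11 lower, where 36.6% of all genes were called in either direction, and without E11.5 P-CNH 1 or E11.5 P-CNH 2 they were 4 and 8 (29.5%). Batches 2 and 3 alone gave 2 and 4 (12.0%).

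Ccnd1, cyclin D1, measured 13.34 and 13.36 in E9.5 CNH, 13.33 and 13.33 in E10.5, 13.33, 13.39 and 13.26 in E11.5, 13.08 and 13.09 in E12.5 and 12.23 and 12.14 in E13.5 CNH. Replicates agreed closely at each stage, and both E13.5 arrays stood below every other tail bud array. Its log2 difference from E9.5 was -1.15, SE 0.15, adjusted p 1.54e-05 and from E11.5 -1.13, SE 0.14, adjusted p 1.12e-05. The first call held without any 1 array and under every other setting, and 2 other probes gave -1.29 and -1.73 with adjusted p of 5.75e-06 and 0.0355. From E11.5 the call held without any 1 array and was lost with array weights (-1.11, adjusted p 0.0923). E7.5 A was the only other region as low, with 12.01, 12.09 and 11.97.

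Cdc6 measured 9.71 and 9.72 in E9.5 CNH, both of batch 2, and 8.27 and 9.55 in E13.5 CNH, both below, by a log2 difference of -1.34, SE 0.19, adjusted p 3.15e-05. Within batch 2, E13.5 CNH 1, on BeadChip 4, lay well below both E9.5 arrays, which were almost equal and share BeadChip 3. No E13.5 array shares a BeadChip with E9.5 CNH, so stage and BeadChip cannot be told apart here. E11.5 CNH does share BeadChips with E13.5 CNH, and between these 2 stages Cdc6, Mcm7 and Ccne1 were not called. From E9.5 to E11.5 CNH their log2 differences were -0.86, -0.61 and -0.53. The call of Cdc6 between E13.5 and E9.5 CNH held without any 1 array. It was lost with no batch term (-0.80, adjusted p 0.227) and with the BeadChip in its place (-0.88, adjusted p 0.183). Mcm7 measured 11.12 and 11.09 in E9.5 and 10.23 and 10.13 in E13.5 CNH, without overlap, with a log2 difference of -1.41, SE 0.31, adjusted p 0.00265, and was not called without E13.5 CNH 2 (-0.87, adjusted p 0.0545) or with no batch term (adjusted p 0.182) and the BeadChip as a random block (adjusted p 0.166). Ccne1 was lower on both E13.5 arrays, with a log2 difference of -1.59, SE 0.41, adjusted p 0.00766, and was not called without E9.5 CNH 2 (-1.58, adjusted p 0.0509) or E13.5 CNH 2 (-0.90, adjusted p 0.138), nor with the BeadChip as a random block (adjusted p 0.0754).

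Cdkn2c measured 5.38 and 5.32 in E9.5 CNH, where it was not detected, 6.50, 6.49 and 5.35 in E11.5, 6.48 and 5.48 in E12.5 and 7.58 and 7.29 in E13.5 CNH, where both arrays detected it. The 2 E13.5 values were the highest, and the difference from E9.5 was at least 2.34-fold when undetected arrays are set to their lowest detected intensity (adjusted p 1.49e-05). This call held without any 1 array and under every other setting. Cdc25c measured 8.40 and 8.37 in E9.5 and 9.97 and 10.26 in E13.5 CNH, both later arrays higher, with a log2 difference of 1.66, SE 0.36, adjusted p 0.00207, and a second probe gave 1.67 with an adjusted p of 0.00127. The Cdc25c call held without any 1 array and was lost with the BeadChip as a random block (adjusted p 0.0516) and array weights (adjusted p 0.0929). The remaining gene of the 3 called higher, Cdkn1b (adjusted p 0.0222), was detected on no array of either stage, so no difference is given. It was not called without E9.5 CNH 1 (adjusted p 0.0951), E9.5 CNH 2 (0.0986) or E13.5 CNH 2 (0.347), and held under 9 of 14 other settings. Mki67 (0.07, adjusted p 0.907), Mcm2 (-0.33, adjusted p 0.386), Ccnb1 (-0.39, adjusted p 0.253), Ccnd2 (-0.48, adjusted p 0.489), E2f1 (0.50, adjusted p 0.136) and Rb1 (0.52, adjusted p 0.253) were not called.

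Exit genes were higher again between E9.5 and E13.5 CNH, for 5 of 13 with 0 lower and a median of 0.70, where 12.0% of all genes were higher and 12.3% lower. They were Gadd45b (at least 2.03-fold, adjusted p 0.000259), the p15 gene Cdkn2b (at least 1.58-fold, adjusted p 0.00621), Gadd45g (1.53, adjusted p 0.0409), Mdm2 (1.26, adjusted p 0.016), which restrains p53, and Cdkn2d. Replication genes were lower for 2 of 28, Dbf4 (-1.22, adjusted p 0.00807) and Rfc3 (-1.13, adjusted p 0.0137), and mitosis genes for 4 of 30, Pttg1 (-1.15, adjusted p 0.0346), Tpx2 (-1.12, adjusted p 0.00173), Mad2l1 (-1.08, adjusted p 0.0208) and Racgap1, which was detected on 1 E9.5 array and no E13.5 array and has no bound. E2F genes had 0 calls by limma and 1 at an unadjusted p under 0.05. The calls of Gadd45b and Tpx2 held without any 1 array, and Cdkn2d was not followed through the other fits. Arrays without which a call was lost are given for Cdkn2b (E13.5 CNH 2, adjusted p 0.112), Gadd45g (E9.5 CNH 1, E9.5 CNH 2, E13.5 CNH 1, E11.5 CNH 3 and E13.5 CNH 2, adjusted p 0.0513 to 0.166), Mdm2 (E9.5 CNH 1, E9.5 CNH 2 and E13.5 CNH 2, adjusted p 0.0638 to 0.161), Dbf4 (E9.5 CNH 1 and E13.5 CNH 2, adjusted p 0.056 to 0.0796), Rfc3 (E9.5 CNH 1, E9.5 CNH 2 and E13.5 CNH 2, adjusted p 0.065 to 0.123), Pttg1 (E9.5 CNH 1, E9.5 CNH 2 and E13.5 CNH 2, adjusted p 0.111 to 0.405), Mad2l1 (E9.5 CNH 1, E9.5 CNH 2 and E13.5 CNH 2, adjusted p 0.079 to 0.165) and Racgap1 (E9.5 CNH 1, E9.5 CNH 2 and E13.5 CNH 2, adjusted p 0.0874 to 0.228). Losses under other settings numbered 1 of 14 for Cdkn2b, 3 of 15 for Dbf4, 4 of 15 for Mdm2, Rfc3 and Tpx2, 5 of 15 for Mad2l1, 7 of 15 for Gadd45g, 8 of 14 for Racgap1 and 9 of 15 for Pttg1.

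Tail bud markers were lower at E13.5 than at E9.5 for 5 of 8, among them Nkx1-2 (-2.67), Fgf8 (-2.16), Cdx2 (-1.94) and Evx1 (-1.31). Surface ectoderm markers were higher for 3 of 5, among them Krt14 (at least 26.5-fold), and endothelium markers for 3 of 3, among them Cdh5 (at least 2.59-fold). Notochord had Chrd higher (1.87) and Noto lower (-1.83), blood had Hbb-b1 higher (3.44) and Hbb-bh1 lower (-3.62), and Col2a1 was higher (1.78) while Stmn2 (at least 2-fold) and Myog (no bound, detected on 1 E9.5 array) were lower. Visceral endoderm had 0 calls by limma, with 0 at an unadjusted p under 0.05. Marker calls lost without 1 array were those of Evx1 (E9.5 CNH 1, E9.5 CNH 2 and E13.5 CNH 2, adjusted p 0.0581 to 0.114), Chrd (E9.5 CNH 1, E9.5 CNH 2 and E13.5 CNH 2, adjusted p 0.0984 to 0.381), Noto (E9.5 CNH 1, E9.5 CNH 2 and E13.5 CNH 2, adjusted p 0.102 to 0.368), Hbb-b1 (E9.5 CNH 1, E9.5 CNH 2, E13.5 CNH 1 and E13.5 CNH 2, adjusted p 0.0652 to 0.115), Hbb-bh1 (E13.5 CNH 1, adjusted p 0.0572), Col2a1 (E13.5 CNH 1, adjusted p 0.117) and Myog (E9.5 CNH 2 and E13.5 CNH 2, adjusted p 0.129 to 0.244), and losses under other settings numbered 1 of 15 for Hbb-bh1, 2 of 15 for Nkx1-2, 3 of 15 for Col2a1, 5 of 15 for Evx1, 6 of 15 for Chrd and Noto, 8 of 14 for Myog and 8 of 15 for Hbb-b1. Their part in the cycle genes was not tested.

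E13.5 and E11.5 CNH both have arrays in batches 2 and 3, so that each batch holds its own comparison. The test called 2 of the 37 higher and 2 lower, where 4.42% of all genes were higher and 3.17% lower, with 9 at an unadjusted p under 0.05 and medians of -0.30 and -0.04. No licensing and fork gene and no cyclin E gene was called, although both stages share BeadChips. Without E13.5 CNH 1 the counts were 3 higher and 10 lower, where 28.6% of all genes were called in either direction, and batches 2 and 3 alone gave 1 higher and 2 lower (2.80%). Cdkn1a measured 11.32, 11.18 and 11.17 in E11.5, 10.33 and 10.59 in E12.5 and 9.71 and 10.29 in E13.5 CNH, below E11.5 on both late arrays. Its log2 difference of -1.24, SE 0.26, adjusted p 0.00373 was opposite in sign to that between E10.5 CNH and NSB. The call held without any 1 array and was lost with array weights (-1.19, adjusted p 0.508). Cdkn2c was higher on both E13.5 arrays, with a log2 difference of 1.42, SE 0.28, adjusted p 0.00248, and was not called without E13.5 CNH 2 (1.25, adjusted p 0.0538) or with cyclic loess (adjusted p 0.258) and array weights (adjusted p 0.269).

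Cdkn1b, detected on no array of E11.5 or E13.5 CNH, was the other gene called higher (adjusted p 0.0486), and no difference is given. The call held under 4 of 14 other settings and was lost without 28 of the 36 arrays taken 1 at a time, with adjusted p of 0.0513 to 0.822. It held only without CLE 1, CLE 2, CLE 3, NSB 3, E7.5 A 3, E13.5 CNH 1, E11.5 P-CNH 1 or E11.5 P-CNH 2. Mki67 (0.058, adjusted p 0.934), Mcm2 (-0.39, adjusted p 0.331), E2f1 (0.12, adjusted p 0.768) and Rb1 (0.42, adjusted p 0.394) were not called. In this comparison Cdkn2b of the exit genes was higher (at least 1.72-fold, adjusted p 0.00132), and replication, mitosis and E2F genes had 0 calls by limma with 1, 7 and 0 at an unadjusted p under 0.05. Tail bud markers were lower for 4 of 8, among them Fgf8 (-1.93), Noto was lower (-2.29), Stmn2, undetected at E13.5 and without a bound, was lower except with cyclic loess normalisation, where its sign turned (0.064), and endothelium and surface ectoderm markers were higher for 3 of 3 and 3 of 5, among them Cdh5 (at least 2.82-fold) and Krt14 (4.44). Blood, visceral endoderm and skeletal markers had 0 calls, with 3, 0 and 1 at an unadjusted p under 0.05. Of the genes named, Cdkn2b (E13.5 CNH 2, adjusted p 0.0986), Noto (E13.5 CNH 2, adjusted p 0.352) and Stmn2 (E13.5 CNH 1, E11.5 CNH 2, E11.5 CNH 3 and E13.5 CNH 2, adjusted p 0.0675 to 0.133) were lost without 1 array, and losses under other settings numbered 1 of 15 for Fgf8, Cdh5 and Krt14, 2 of 14 for Cdkn2b, 4 of 15 for Noto and 6 of 15 for Stmn2. The 3 comparisons of E13.5 CNH share its 2 arrays.

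The remaining comparisons set regions of 1 stage side by side, to ask whether progenitor regions cycle differently. At E7.5, the anterior region was compared with the posterior. Cdkn1a measured 7.73, 7.83 and 7.01 in A and 9.14 and 9.76 in P, so all 3 anterior arrays were lower, with a log2 difference of -1.96, SE 0.26, adjusted p 4.28e-05. Ccnd1 measured 12.01, 12.09 and 11.97 in A and 12.73 and 12.72 in P, again lower on all 3, with a log2 difference of -0.70, SE 0.14, adjusted p 0.00417. These were the 2 of 37 genes called lower, where 1.51% of all genes were lower, and 0 were called higher against 1.37%. Both calls held without any 1 array, and another probe of each gene was called in the same direction, but Ccnd1 was not called with the mean of all kept probes (-0.79, adjusted p 0.0587). At an unadjusted p under 0.05 there were 5, with medians of -0.07 for the 37 and 0.06 for all genes, and Mki67 (0.03, adjusted p 0.997), Ccnd2 (-1.17, adjusted p 0.224) and Rb1 (0.82, adjusted p 0.199) were not called. Fitted on batches 2 and 3 alone, Cdkn1a gave -1.96, SE 0.31, adjusted p 0.00227 and Ccnd1 -0.70, SE 0.18, adjusted p 0.0929.

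Further genes of replication, mitosis, exit and E2F had 0 calls by limma between E7.5 A and P, with 1, 2, 2 and 0 at an unadjusted p under 0.05. Streak and tail bud markers were lower for 7 of 8, among them Wnt3a (at least 68.5-fold), Cdx2 (-5.93), Tbx6 (at least 25.9-fold) and Nkx1-2 (-4.93). Shh (2.14), Col2a1 (1.87) and Sox9 (1.29) were higher and Apob (-2.14) was lower. The 4 streak markers held without any 1 array and under every other setting, whereas Shh (E7.5 A 1, E7.5 P 1 and E7.5 P 2, adjusted p 0.077 to 0.127), Col2a1 (E7.5 P 1, adjusted p 0.0894), Sox9 (E7.5 P 1, adjusted p 0.0893) and Apob (E7.5 P 1, adjusted p 0.0688) were lost, and losses under other settings numbered 1 of 15 for Col2a1 and 2 of 15 for Shh and Sox9. Neuron, blood, endothelium and surface ectoderm markers had 0 calls, with 1, 1, 0 and 1 at an unadjusted p under 0.05.

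In the tail bud the CNH was compared with the P-CNH over E9.5, E10.5 and E11.5, as the mean of the differences of the 3 stages. Cdkn1a measured 10.62 and 10.75 in E9.5 CNH and 9.97 and 10.47 in P-CNH, 11.11 and 11.00 against 10.18 and 10.17 at E10.5, and 11.32, 11.18 and 11.17 against 10.47 and 10.4998 at E11.5. All 7 CNH arrays were above the P-CNH arrays of their stage, and the mean difference was 0.74, SE 0.17, adjusted p 0.0422. It was the 1 gene of 37 called higher against 0.553% of all genes, and 0 were called lower against 0.0964%. The call rests close to the threshold, since it was lost without 25 of the 36 arrays taken 1 at a time, with adjusted p of 0.0501 to 0.371. It held only without E7.5 A 1, 2 or 3, E7.5 P 1 or 2, NSB 3, CLE 2 or 3, E9.5 P-CNH 2, or E13.5 CNH 1 or 2. It held under 9 of 16 other settings, with adjusted p of 0.0507 to 1 in the others. Within batch 1, at E10.5, it had a log2 difference of 0.88, SE 0.15, adjusted p 0.00898. Medians were 0.03 for the 37 and 0.00 for all genes, and limma gave 2 of the 37 an unadjusted p under 0.05.

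By stage, the difference of Cdkn1a between CNH and P-CNH was 0.52 at E9.5, 0.88 at E10.5 and 0.82 at E11.5. Tests of the difference between stages called 0 of the 37 genes in limma for each pair of stages, with 1, 1 and 0 at an unadjusted p under 0.05, and 0, 5 and 1 of all genes. Ccnd2, cyclin D2, measured 11.75 and 11.07 in E10.5 CNH and 10.99 and 10.01 in P-CNH, and 10.90, 11.25 and 9.98 against 7.47 and 8.87 at E11.5. CNH arrays were the higher at both stages, and over 3 stages the difference of 0.92, SE 0.28, adjusted p 0.267 missed the threshold, and was called without E13.5 CNH 1, E13.5 CNH 2 or E11.5 P-CNH 2. Mki67 (0.07, adjusted p 1) and Mcm2 (-0.05, adjusted p 1) were not called. Replication, mitosis, exit and E2F genes had 0 calls by limma and 0, 0, 3 and 0 at an unadjusted p under 0.05. Notochord and node markers were higher for 3 of 5, Shh, Noto and Foxa2, which no E9.5 or E10.5 P-CNH array detected, so no difference is given, and Sox9 was higher (1.51). All 4 held without any 1 array, and losses under other settings numbered 1 of 16 for Noto, Foxa2 and Sox9. Streak and tail bud, neuron, blood, endothelium, visceral endoderm and surface ectoderm markers had 0 calls, with 3, 1, 1, 0, 0 and 2 at an unadjusted p under 0.05.

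At E8.5, RN, which holds the node, was compared with the mean of NSB, St1 and St5. Cdkn1a measured 8.47 and 8.73 in RN, 9.45, 9.68 and 9.79 in NSB, 9.14 and 9.58 in St1 and 9.88 and 9.88 in St5. Both RN arrays were below all others, with a log2 difference of -0.997, SE 0.23, adjusted p 0.015. It was the 1 gene of 37 called lower against 0.675% of all genes, and 0 were called higher against 2.13%. Within batch 1 it had a log2 difference of -0.997, SE 0.12, adjusted p 0.000256. The call was lost without RN 1 (-0.87, adjusted p 0.417) or RN 2 (-1.13, adjusted p 0.103), which leave RN with 1 array, and also with the mean of all kept probes (adjusted p 0.0984). Medians were 0.03 for the 37 and -0.01 for all genes, and 2 had an unadjusted p under 0.05. Notochord and node markers were higher for 4 of 5, among them Shh (3.03), and streak markers lower for 4 of 8, among them Wnt3a (-2.95). Blood markers were higher for 3 of 6, among them Hbb-bh1 (2.75), and Col2a1 (2.30) and Sox9 (1.69) were higher. Of the markers named, Hbb-bh1 (RN 1 and RN 2, adjusted p 0.0653 to 0.441) was lost without 1 array, and every other setting kept all 5.

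In St5, the posterior streak, against the mean of RN, NSB and St1, limma called 0 of the 37 genes, where 3.36% of all genes were higher and 4.21% lower, with 2 at an unadjusted p under 0.05 and medians of 0.01 and 0.00. Cdkn1a was higher on both St5 arrays, with a log2 difference of 0.70, SE 0.23, adjusted p 0.0778. Rb1 measured 7.13 and 7.17 in St5, 7.55 and 7.74 in St1, 8.13 and 8.26 in RN and 8.12, 7.80 and 7.499 in NSB. It was lower in St5, with a log2 difference of -0.79, SE 0.26, adjusted p 0.0748. Both were called within batch 1, Cdkn1a with 0.70, SE 0.12, adjusted p 0.00149 and Rb1 with -0.79, SE 0.10, adjusted p 0.000187. In the model of all batches, Rb1 was called lower without E7.5 A 2, CLE 3, E11.5 P-CNH 1 or E11.5 P-CNH 2, and Cdkn1a higher without E7.5 A 3.

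Exit genes were called for St5, Gadd45g (1.67, SE 0.42, adjusted p 0.0121) and Gadd45b (adjusted p 0.00967), which none of the other 3 regions detected, higher and Btg1 (-0.89, SE 0.18, adjusted p 0.00174) lower, of 13. For RN, exit, replication, mitosis and E2F genes had 0 calls by limma, with 2, 0, 0 and 0 at an unadjusted p under 0.05, and for St5 replication, mitosis and E2F genes had 0, with 0, 1 and 1. St5 markers were higher for endothelium in 3 of 3, none of which NSB or St1 detected, and lower for notochord and node in 4 of 5, among them Noto, which St5 did not detect. Evx1 was higher (1.34), and Nkx1-2 (-2.06), Sox9 (-1.93) and Col2a1 (-1.89) were lower. Sox2 and Elavl4 were called lower too, with no difference given since no St5 array detected them. Without 1 array the calls lost were Gadd45g (St5 1 and St5 2, adjusted p 0.115 to 0.19), Gadd45b (St5 1 and St5 2, adjusted p 0.0958 to 0.174), Btg1 (St5 1, adjusted p 0.0747), Evx1 (St5 1 and St5 2, adjusted p 0.0547 to 0.0611), Nkx1-2 (St5 2, adjusted p 0.0805), Sox2 (St5 2, adjusted p 0.0868) and Elavl4 (St5 1, St5 2 and NSB 2, adjusted p 0.0692 to 0.399), and losses under other settings numbered 1 of 15 for Gadd45b, Btg1 and Sox2 and 4 of 15 for Elavl4. Blood, visceral endoderm and surface ectoderm markers had 0 calls in St5, with 1, 1 and 1 at an unadjusted p under 0.05, and neuron, endothelium, visceral endoderm and surface ectoderm markers 0 in RN, with 0, 1, 0 and 1.

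**Figure D4:**
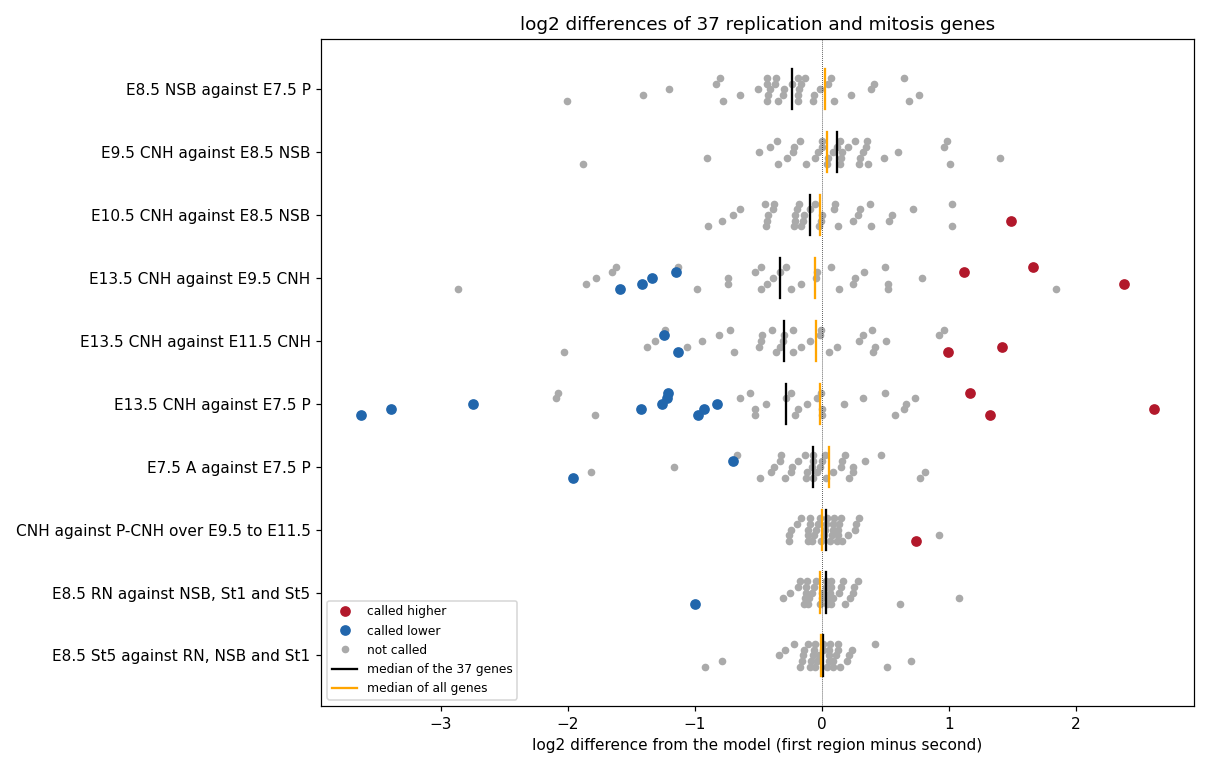
log2 differences (horizontal axis) of the 37 genes in 10 comparisons (vertical axis), one point per gene, red where called higher and blue where called lower, with the median of the 37 in black and of all genes in orange. E13.5 CNH against E7.5 P has more coloured points than any other comparison, with 3 higher and 10 lower. NSB against E7.5 P, E9.5 CNH against NSB and St5 against RN, NSB and St1 have none.

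Over the 37 genes, 21 had more than 1 kept probe, with 39 probes beside the brightest. For genes called between E13.5 CNH and E7.5 P there were 9 such probes, of which 7 had the same sign and 5 were called, and 8 genes were called only by another probe. Between E13.5 and E9.5 CNH there were 6, of which 5 had the same sign and 4 were called, and 5 genes were called only by another probe. Most of these genes are not named here, and the share of all genes called only by another probe is not given. The counts are thus not a result about the 37 genes, and a gene given as not called was not called by its brightest probe. Cdkn1a had the same sign with all of its probes in each comparison where it was called. The direction of Mcm6 and Cdk4 at the end of the series thus depended on the probe, whereas that of Cdkn1a, Ccnd1, Cdc25c and Rb1 did not where they were called. For Cdc6, only a probe detected on 1 array had the opposite sign.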

How the data were processed

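Intensities (unit intensity) and detection p-values (unit p-value) were those the authors deposited, as one Illumina table without control probes. The authors' lumi normalisation was not used, and neqc of limma, with controls inferred from detection p-values and an offset of 16, took its place. Models were fitted in R 4.3.3 with limma 3.58.1, with region and batch as terms, 18 residual degrees of freedom and Benjamini-Hochberg adjustment over 21712 probes. ComBat-type adjustment served only as an alternative. A gene was represented by its brightest kept probe. Of the called genes, up to 6 higher and 6 lower per comparison were named, with Mki67, Mcm2, Ccnb1, Ccnd1, Ccnd2, Ccnd3, Cdkn1a, Cdkn1b, Cdkn1c, E2f1 and Rb1 in any comparison, and up to 4 of each other list. Genes and lists were chosen with earlier results of these data known. Promoters came from RefSeq. Figures were drawn in Python 3.11.15 with NumPy 2.4.6 and matplotlib 3.10.9.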

Additional observations from a re-analysis of the deposited data

How the results depend on the processing

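Counts of called genes among the 37 were refitted under other settings, and the cause of each move was not tested. Shares of all genes called in the same fits are given above for some comparisons only. A moved count in this section is thus not a result about the 37 genes. Without background correction NSB against E7.5 P called 1, E10.5 CNH against NSB 2 and St5 1, and with an offset of 100 they called 1, 3 and 1. Cyclic loess gave 3 for E10.5 CNH against NSB, 2 for E13.5 against E11.5 CNH, 8 for E13.5 CNH against E7.5 P and 0 for CNH against P-CNH. With no batch term NSB against E7.5 P called 3 and E9.5 CNH against NSB 2. ComBat-type adjustment, which leaves the batch out of the residual degrees of freedom, gave 1, 3 and 8 for NSB against E7.5 P, E9.5 CNH against NSB and E10.5 CNH against NSB, and 3 each for RN and St5. The BeadChip as a random block (consensus correlation 0.483) gave 3 for E10.5 CNH against NSB, 3 for E13.5 against E9.5 CNH, 6 for E13.5 CNH against E7.5 P, 0 for CNH against P-CNH and 1 for St5.

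Batch 1 alone called 7 for E10.5 CNH against NSB and 3 each for RN and St5. Batches 2 and 3 alone called 3 in the F test of the CNH stages, 6 for E13.5 CNH against E7.5 P, 1 for E7.5 A against P and 0 for CNH against P-CNH. The stricter filter, with 18570 probes, called 2 for E10.5 CNH against NSB. With no filter NSB against E7.5 P called 1, E9.5 CNH against NSB 1 and CNH against P-CNH 0. Array weights gave 3 for E9.5 CNH against NSB, 8 for E10.5 CNH against NSB, 0 for E13.5 against E11.5 CNH, 3 for E13.5 CNH against E7.5 P, 0 for CNH against P-CNH, and 3 each for RN and St5. An intensity trend gave 1 for NSB against E7.5 P. The mean of all kept probes gave 1 for NSB against E7.5 P, 2 for E10.5 CNH against NSB, 11 for E13.5 against E9.5 CNH, 19 for E13.5 CNH against E7.5 P, 0 for CNH against P-CNH, 0 for RN and 1 for St5. Replicate number as a block gave 2 for E10.5 CNH against NSB and 1 for St5.

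Further settings were chosen after the data were seen. Leaving out the 4 arrays with the fewest detected probes gave 3 for NSB against E7.5 P, 3 for E9.5 CNH against NSB, 5 for E10.5 CNH against NSB, 11 in the F test, 13 for E13.5 against E9.5 CNH, 18 for E13.5 CNH against E7.5 P, 5 for E7.5 A against P and 2 for St5. Each array's count of detected probes, added as a covariate, gave 1, 2 and 3 for NSB against E7.5 P, E9.5 CNH against NSB and E10.5 CNH against NSB, and 1 for St5. Over all these settings E13.5 CNH against E7.5 P, with 13 in the model of all arrays, ran from 3 to 19. Reversed in sign were Stmn2 between E13.5 and E11.5 CNH with cyclic loess (0.064), and Tpx2 between E9.5 CNH and NSB with no batch term (-1.58) and with the BeadChip block (-0.64).

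With 1 array left out at a time, counts ran from 0 to 1 for NSB against E7.5 P, 0 to 1 for E9.5 CNH against NSB, 1 to 3 for E10.5 CNH against NSB, 4 to 12 in the F test, 5 to 16 for E13.5 against E9.5 CNH, 3 to 13 for E13.5 against E11.5 CNH and 8 to 19 for E13.5 CNH against E7.5 P. They ran from 2 to 3 for E7.5 A against P, 0 to 2 for CNH against P-CNH, 0 to 1 for RN and 0 to 1 for St5. Batch 1 alone could not be fitted for 7 comparisons, batches 2 and 3 alone for 3, and NSB against E7.5 P and E9.5 CNH against NSB could not be fitted without NSB 3. The number of arrays per region, mostly 2, limits every estimate, and batch cannot be told apart from stage where a region lies in 1 batch.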
